A study of Mus musculus with 6 samples.

Results

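The 10 genes described here are a list of endothelial and platelet genes, Stab2, Vwf, Clec1b, Kdr, Pecam1, Cdh5, Lyve1, Pf4, Ppbp and Itga2b, out of 26181 genes in the deposited table of RNA sequencing of splenic CD8+ T cells. All 10 had a row, found by matching Ensembl gene IDs to symbols. Stab2, Vwf and Clec1b were selected on their higher normalised counts in CDAHFD libraries of these same data, so their difference between diets is given as a description with no test. The other 7 were listed for what they are known to mark, though with earlier results of these data known.

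The cells were primary CD8+ T cells from spleens of wild-type (WT) C57BL/6 mice. From the age of 6 weeks the mice ate either the diet labelled CDAHFD or the diet labelled ND, each for 7 weeks. CDAHFD usually stands for a high-fat diet that lacks choline and supplies protein as defined amino acids, used to bring on steatohepatitis in mice. There were 3 CDAHFD libraries and 3 ND libraries. The labels do not state whether each library is its own animal. Every p-value here thus reflects variation among these libraries alone, and that variation may be technical. How the cells were isolated and how pure they were is not described.

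Sinusoidal endothelium lines the wide, leaky vessels of the liver and the spleen, and clears spent macromolecules from blood through scavenger receptors. Blood endothelium in general is held together by VE-cadherin and PECAM-1 and depends on signals of vascular endothelial growth factor (VEGF). Platelets are fragments of megakaryocytes, which mature in bone marrow and, in mice, also in spleen. They carry the integrin chain encoded by Itga2b and store the chemokines encoded by Pf4 and Ppbp. Von Willebrand factor is made by both lineages and tethers platelets to damaged vessels.

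Stab2, Vwf and Clec1b were the members whose level was higher in CDAHFD libraries by more than 3-fold. Stab2, the scavenger receptor for hyaluronan of sinusoidal endothelium, was 9.12-fold higher. Clec1b, which encodes the platelet receptor CLEC-2 and in mice is also known from some myeloid cells, was 5.30-fold higher. Vwf was 3.33-fold higher. Kdr, the main VEGF receptor of blood endothelium, fell in the same libraries, and Cdh5, Ppbp and Itga2b did not pass the test. Lyve1 and Pf4 had so few reads that they stayed below the minimum for testing.

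The first 250 bases before the RefSeq start site are shown for 3 members, because Stab2 and Clec1b were both higher in CDAHFD libraries while Kdr was lower. RefSeq's table (build GRCm38.p6, the same build as mm10) held such windows for 6 of the 10 members. The windows lie at chr10:87007943-87008192 on the minus strand (Stab2), chr6:129397047-129397296 on the plus strand (Clec1b) and chr5:75978456-75978705 on the minus strand (Kdr). Each reads 5′ to 3′ towards the start site.
Stab2: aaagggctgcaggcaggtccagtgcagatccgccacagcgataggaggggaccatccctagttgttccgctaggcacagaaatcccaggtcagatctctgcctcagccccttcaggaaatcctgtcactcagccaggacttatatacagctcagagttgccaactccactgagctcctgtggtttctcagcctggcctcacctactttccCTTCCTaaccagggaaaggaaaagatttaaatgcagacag
Clec1b: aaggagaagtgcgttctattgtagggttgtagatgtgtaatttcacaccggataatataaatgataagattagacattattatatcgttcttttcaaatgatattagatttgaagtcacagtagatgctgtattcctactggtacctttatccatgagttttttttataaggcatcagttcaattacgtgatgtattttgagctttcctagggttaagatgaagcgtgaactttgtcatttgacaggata
Kdr: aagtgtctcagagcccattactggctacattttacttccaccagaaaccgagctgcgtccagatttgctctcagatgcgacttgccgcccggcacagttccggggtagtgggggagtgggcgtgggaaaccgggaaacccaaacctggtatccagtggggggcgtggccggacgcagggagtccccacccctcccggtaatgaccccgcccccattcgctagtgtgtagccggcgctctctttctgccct
Capitals mark matches, on either strand, to any of 5 motifs that were searched. The motif of ETS factors was searched as AGGAAG, and 29.5% of 32851 promoter windows of the same length held it. The motif of GATA factors was searched as AGATAA, which 9.99% of windows held. The longer motif of the ETS factor PU.1 was GAGGAAGT, which contains the ETS letters and was held by 2.44% of windows. The AP-1 motif was TGACTCA, held by 4.46% of windows, and the MAF half-site was TGCTGA, held by 16.1%. Stab2 had 1 match, to the ETS letters on the reverse strand, and Clec1b and Kdr had no match to any of the 5. The annotations place the start of Stab2 differently. In GENCODE the gene reaches to 87008025, so the Stab2 match lies inside that gene span and not before it. The Kdr window touches its span, which ends at 75978458, by its last bases. In base composition the windows of the 2 higher genes differed, with 53.2% G and C in Stab2 and 33.2% in Clec1b, against 61.6% in Kdr. A match of letters is a description of the sequence and not a binding site.

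Reads assigned to genes numbered 25314988 to 28067393 per library. Values are normalised counts, that is, reads per gene divided by 1 size factor per library. The test was limma on log2(normalised count + 1), with Benjamini-Hochberg adjustment over all genes tested. Tested were the 15819 genes averaging 10 normalised counts or more over all 6 libraries. A gene could thus enter through a high level in 1 diet alone, and a low gene with a fall could be left out. Log2 fold changes refer to this scale, so those of low genes come out too small. A gene is said to have risen or fallen at an adjusted p below 0.05. At that threshold 47.1% of all genes tested were called, made up of 24.6% higher and 22.5% lower in CDAHFD libraries. A call of a single gene is therefore common in this comparison.

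The scavenger receptors come first. Stab2 (ENSMUSG00000035459, chromosome 10, 86841198 to 87008025 in mm10) is known to bind hyaluronan and to take it up from blood. It stood at 2549, 2325 and 2510.0 normalised counts in the CDAHFD libraries, against 252, 293 and 265 in the ND libraries. All CDAHFD values lay far above all ND values, and the libraries of a diet lay close together. The means were 2461 ± 120 in CDAHFD and 270.0 ± 20.8 in ND libraries (SD, n = 3 each), a log2 fold change of 3.19 (SE 0.07). The strand setting of the counting was not given, and Stab2 has antisense genes on its other strand. The most abundant of these, Gm16268, averaged 13.7 in CDAHFD and 1.66 normalised counts in ND libraries, so it was far below Stab2 itself.

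Lyve1 (chromosome 7, 110850607 to 110863239), the hyaluronan receptor of lymphatic and sinusoidal endothelium, was close to undetected. Its reads were 0, 1 and 7 in the CDAHFD libraries and 2, 1 and 0 in the ND libraries. The diets overlapped, and a single CDAHFD library, replicate 3, held most of the reads. With no minimum on the level, the log2 fold change was 0.43 (SE 0.66, limma adjusted p = 0.697). At this depth no difference was detectable.

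Clec1b (ENSMUSG00000030159, chromosome 6, 129397297 to 129409335) had 376, 301 and 322 normalised counts in the CDAHFD libraries, against 43.8, 70.4 and 74.5 in the ND libraries. The diets did not overlap. The means were 333 ± 38.8 in CDAHFD and 62.9 ± 16.7 in ND libraries (SD, n = 3 each), a log2 fold change of 2.42 (SE 0.17). The annotation has Clec9a, a dendritic cell receptor gene, overlapping Clec1b on the same strand, so reads of the shared stretch are uncertain. Clec9a was lower in CDAHFD libraries, at 1150 against 1708 normalised counts in ND libraries.

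The 2 nearest protein-coding genes with a row on each side of Clec1b, outside its overlap with Clec9a, are named after their values were seen. On the lower-coordinate side the nearest, Clec12b, averaged 2.61 in CDAHFD and 0.348 normalised counts in ND libraries and was not tested. Beyond it Clec12a, an inhibitory myeloid receptor gene, rose to 1189 ± 119 in CDAHFD libraries, against 452 ± 26.1 in ND libraries (SD, n = 3 each, limma adjusted p = 1.63e-15). Clec1a, the nearest on the other side, fell to 104 ± 21.4 in CDAHFD libraries, against 158 ± 27.8 in ND libraries (SD, n = 3 each, limma adjusted p = 0.00271). Olr1, beyond Clec1a, averaged 12.3 in CDAHFD and 15.3 in ND libraries and did not pass the test (limma adjusted p = 0.456).

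Vwf (ENSMUSG00000001930, chromosome 6, 125546774 to 125686679) stood at 466, 461 and 461 normalised counts in the CDAHFD libraries, against 149, 145 and 123 in the ND libraries. The CDAHFD values were nearly equal and lay well above every ND value. The means were 463 ± 3.05 in CDAHFD and 139 ± 14.3 in ND libraries (SD, n = 3 each), a log2 fold change of 1.73 (SE 0.10). Its nearest measured neighbours, named after their values were seen, did not pass the test or were barely detected. Cd9, a tetraspanin gene also used as a platelet gene, averaged 709 ± 14.6 in CDAHFD and 759 ± 56.9 in ND libraries (SD, n = 3 each, limma adjusted p = 0.245). Ano2 averaged 6.95 in CDAHFD libraries and had no reads in ND libraries.

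**Figure D1:**
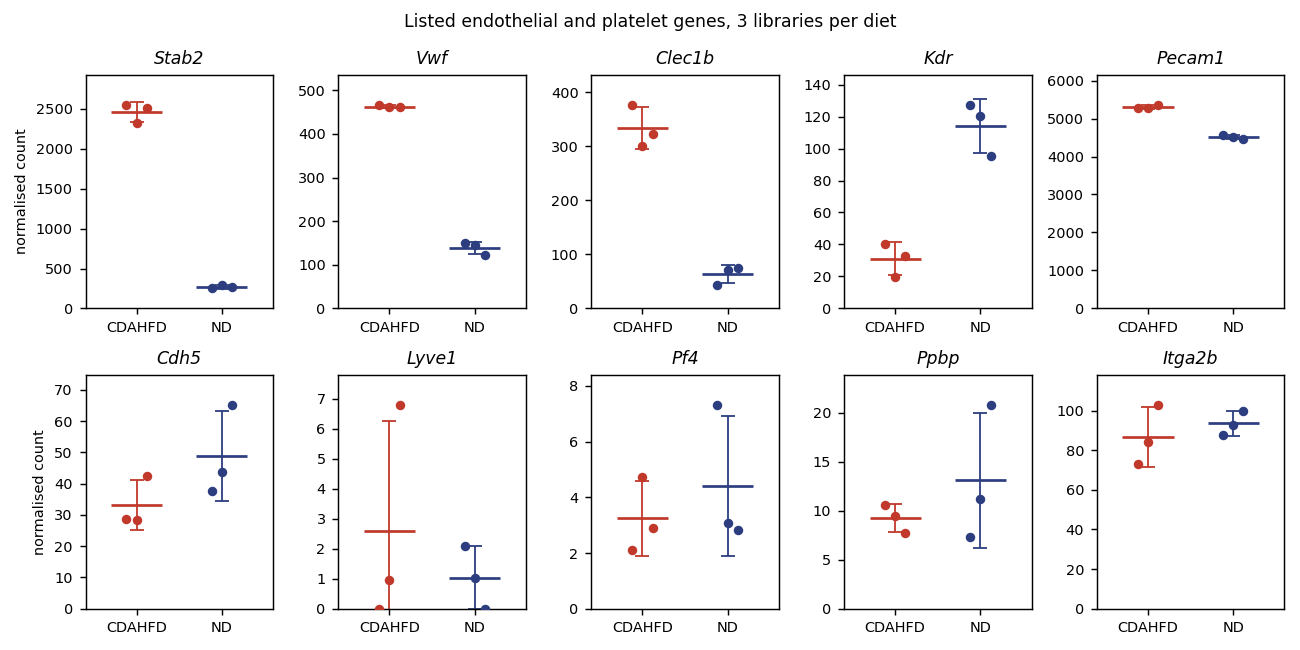
Normalised counts (vertical axes, each starting at 0) of the 10 listed genes in 3 CDAHFD libraries (left in each panel) and 3 ND libraries (right); points are libraries, long lines means and error bars the SD. Stab2, Vwf, Clec1b and Pecam1 lie higher in CDAHFD libraries without overlap, Kdr lies lower, and the other 5 overlap.

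Among the genes of blood endothelium, Kdr (ENSMUSG00000062960, chromosome 5, 75932827 to 75978458) went the other way. It stood at 40.2, 19.9 and 32.9 normalised counts in the CDAHFD libraries, against 127, 120 and 95.2 in the ND libraries. Every CDAHFD value lay below every ND value. Kdr fell to 31.0 ± 10.3 in CDAHFD libraries, against 114 ± 16.8 in ND libraries (SD, n = 3 each; log2 fold change -1.89, SE 0.22, limma adjusted p = 5.86e-08).

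Cdh5 (chromosome 8, 104101625 to 104144511), which encodes VE-cadherin, the adhesion molecule that defines endothelial junctions, was low in both diets. It had 28.5, 28.4 and 42.6 normalised counts in the CDAHFD libraries, against 37.5, 43.9 and 65.1 in the ND libraries. The ranges overlapped. The log2 fold change was -0.53 (SE 0.25, 95% interval -1.04 to -0.02, limma adjusted p = 0.0817), so it did not pass the test. It did pass without ND replicate 1 (adjusted p = 0.0468) and without CDAHFD replicate 3 (adjusted p = 0.0349), each time as a lower level in CDAHFD libraries.

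Pecam1 (chromosome 11, 106654217 to 106750628), an adhesion molecule of endothelium that leukocytes and platelets also carry, was by far the most abundant member. Its values were 5268, 5269 and 5355 normalised counts in the CDAHFD libraries, against 4579, 4506 and 4454 in the ND libraries. Without overlap, but by a small step, Pecam1 rose to 5297 ± 49.9 in CDAHFD libraries, against 4513 ± 62.7 in ND libraries (SD, n = 3 each; log2 fold change 0.23, SE 0.04, limma adjusted p = 1.42e-05). Kdr, Cdh5 and Pecam1, which mark the same cells in intact vessels, thus gave 1 fall, 1 value that did not pass and 1 small rise.

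The platelet genes were low. Itga2b (chromosome 11, 102453297 to 102470122), whose integrin chain pairs with that of Itgb3 to bind fibrinogen, had 73.0, 84.3 and 103 normalised counts in the CDAHFD libraries, against 87.6, 92.9 and 99.9 in the ND libraries. The CDAHFD values spanned the ND values on both sides. Its log2 fold change was -0.12 (SE 0.16, 95% interval -0.45 to 0.21, limma adjusted p = 0.578).

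Ppbp and Pf4 lie side by side on chromosome 5 (90768518 to 90770063 and 90772435 to 90773383), 2372 bases apart, and encode chemokines of platelet granules. Ppbp had 10.6, 9.47 and 7.74 normalised counts in the CDAHFD libraries, against 7.30, 11.2 and 20.7 in the ND libraries. The diets overlapped, and the highest value was that of ND replicate 3 (log2 fold change -0.35, SE 0.44, 95% interval -1.25 to 0.54, limma adjusted p = 0.541). Pf4 had 2, 5 and 3 reads in the CDAHFD libraries, against 7, 3 and 3 in the ND libraries. With no minimum on the level, its log2 fold change was -0.30 (SE 0.61, limma adjusted p = 0.776). Both messages are among the most abundant of platelets. Here Pf4 was near the limit of detection in every library, and Ppbp was low, between 7.30 and 20.7 normalised counts.

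Of the 7 members listed for what they mark, 5 passed the minimum for testing; 1 rose, 1 fell and the remaining 3 were not called. The share called among all genes tested was 47.1%. With the 3 picked members counted, 4 of the 10 had all CDAHFD libraries above all ND libraries, 1 had them below and 5 overlapped. Among all genes tested, 54.3% did not overlap, 27.8% lying above and 26.5% below. Since 3 of the 4 were picked for this, nothing is read from that count.

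Levels of different genes can be set side by side only per length. Divided by the length of the longest coding transcript of each gene, Pecam1 led in both diets, with 1539 ± 14.5 in CDAHFD and 1311 ± 18.2 normalised counts per kb in ND libraries (SD, n = 3 each). The median over 12501 genes was 258 in CDAHFD and 244 normalised counts per kb in ND libraries. In CDAHFD libraries Clec1b (306 ± 35.6) and Stab2 (299 ± 14.5) followed with overlapping ranges, then Vwf (52.4 ± 0.346) and Itga2b (25.2 ± 4.35). Below these, Ppbp, Cdh5, Pf4 and Kdr lay between 5.23 and 8.55 normalised counts per kb, each overlapping its neighbour in the order, and Lyve1 came last at 0.890.

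In ND libraries the same measure ran from Clec1b (57.7 ± 15.3) and Stab2 (32.8 ± 2.52) through Itga2b (27.2 ± 1.81) to Kdr (19.3 ± 2.84) and Vwf (15.7 ± 1.61). Kdr and Vwf overlapped there, as did each pair of neighbours from Vwf down to Pf4. Kdr was thus ranked 9 in CDAHFD and 5 in ND libraries, and Vwf 4 in CDAHFD and 6 in ND libraries. These places depend on the length used. Per kb of all annotated exons Kdr ranked 9 in CDAHFD and 4 in ND libraries, and Vwf ranked 4 in CDAHFD and 8 in ND libraries. On that length Clec1b averaged 65.3 in CDAHFD and 12.3 normalised counts in ND libraries, and it then ranked below Stab2 in both diets. Shares per kb of the coding transcript are over the 12501 tested genes with such a transcript. Stab2 stood above 53.9% of these in CDAHFD libraries and above 19.2% in ND libraries, and Cdh5 above 5.74% in CDAHFD and 10.7% in ND libraries.

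**Figure D2:**
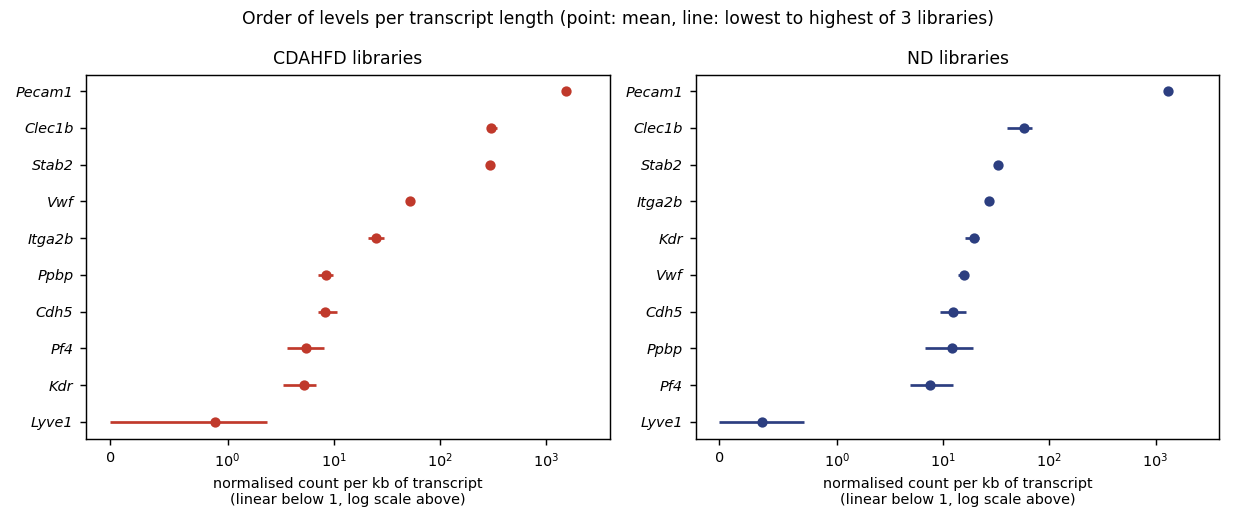
Normalised counts per kb of the longest coding transcript (horizontal axes, linear below 1 and logarithmic above) in CDAHFD libraries (left) and ND libraries (right), members ordered by level; points are means of 3 libraries and lines run from the lowest to the highest. Pecam1 leads in both at 1539 in CDAHFD and 1311 in ND libraries, and Lyve1 is last in both.

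Levels of defining markers of endothelium and of platelets are described next. Of 9 endothelial markers, 8 had a row, and 4 of these, Tie1, Tek, Erg and Cldn5, averaged below 10 normalised counts in both diets. Their highest single value was 6.78 in CDAHFD and 12.2 in ND libraries. Tek, the angiopoietin receptor, had 1 read in the 3 CDAHFD libraries together and 6 in the 3 ND libraries. Without Pecam1 the endothelial markers summed to 67.2 to 92.0 normalised counts in CDAHFD libraries, against 189 to 193 in ND libraries. With Pecam1 the sum was 5336 to 5447 in CDAHFD and 4642 to 4769 in ND libraries, so the direction depended on leaving Pecam1 out. The sum without Pecam1 was lower in the libraries in which Stab2, Vwf and Clec1b were higher. Kdr, already described, averaged 31.0 in CDAHFD and 114 in ND libraries and was a large part of that sum.

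Of 9 platelet and megakaryocyte markers, 8 had a row, and Pf4, Gp9 and Treml1 averaged below 10 normalised counts in both diets. Of the 5 that were tested, 0 passed by limma, 0 by edgeR and 0 by DESeq2, and 0 had an unadjusted limma p below 0.05, the limma adjusted p running from 0.108 for Gp1ba to 0.767 for Itgb3. Without Itgb3, which also pairs with another integrin chain outside platelets, the platelet markers summed to 144 to 192 in CDAHFD and 196 to 202 normalised counts in ND libraries. With Itgb3 the sums overlapped, at 945 to 973 in CDAHFD and 919 to 1030 in ND libraries. In both diets 4 of 8 endothelial and 3 of 8 platelet markers averaged below 10 normalised counts, and the others averaged 10 or more in at least 1 diet, so the genes are called by their list and not by a cell type. Whether endothelial cells or platelets contributed to their reads was not tested.

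Markers of other cells were abundant beside these. Among all genes tested, 24.6% rose and 22.5% fell. Of 20 red pulp macrophage and monocyte markers, 19 were tested and all 19 rose, with a median log2 fold change of 2.98, where the median over all genes tested was -0.01. Their sum was 189293 to 207217 normalised counts in CDAHFD and 22565 to 24880 in ND libraries, and none averaged 0, Clec4f being the one below the minimum. Vsig4, named after its values were seen, averaged 42.4 in CDAHFD and 6.91 in ND libraries. It entered the test only through its CDAHFD level. Vcam1, an adhesion molecule of red pulp macrophages, averaged 47155 in CDAHFD and 3402 in ND libraries, and Csf1r, the receptor for macrophage colony-stimulating factor, averaged 27030.4 in CDAHFD and 3327 in ND libraries. Of 12 erythroid markers 12 rose (median 2.93, sum 9855 to 10175 in CDAHFD and 1106 to 1117 in ND libraries), and of 12 neutrophil markers 10 rose (median 1.65, sum 9198 to 10403 in CDAHFD and 3480 to 3516 in ND libraries). The haemoglobin genes Hba-a1 and Hbb-bs rose to 3179 and 3150.4 in CDAHFD libraries, against 306 and 282 in ND libraries. The neutrophil alarmin genes S100a9 and S100a8 rose to 2914 and 1988 in CDAHFD libraries, against 941 and 620 in ND libraries. The part of all these cells' markers in the higher levels of Stab2, Clec1b and Vwf was not tested. In bulk RNA, fewer cells of a type and less RNA per cell cannot be told apart.

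The other lists differed in direction, beside the same shares of 24.6% higher and 22.5% lower over all genes tested. CD8 T cell markers fell for 7 of 10 genes, 1 rose and 2 did not pass (sum 125114 to 127753 in CDAHFD and 145798 to 149923 in ND libraries), with Cd8a at 27886 in CDAHFD and 32889 in ND libraries and Cd8b1 at 19151 in CDAHFD and 25551 in ND libraries. Of 14 fibroblast and mural cell markers 9 had a row and 3 were tested, with 0 called by limma, 0 by edgeR and 0 by DESeq2 and 1 at an unadjusted limma p below 0.05 (sum 72.0 to 80.4 in CDAHFD and 64.1 to 86.5 in ND libraries). Pdgfrb averaged 21.9 in CDAHFD and 27.7 in ND libraries, and Col1a1 averaged 12.1 in CDAHFD and 23.0 in ND libraries. Col1a1 was called lower without ND replicate 3 (limma adjusted p = 0.0179) and without CDAHFD replicate 2 (0.0335). Among basophil, mast cell and progenitor markers, some of which also transcribe Itga2b, 2 of 5 tested rose and 1 fell (sum 1435 to 1575 in CDAHFD and 950 to 1041 in ND libraries). Hdc, the histidine decarboxylase gene, rose to 715 in CDAHFD libraries, against 92.5 in ND libraries, and Kit fell to 639 in CDAHFD libraries, against 820 in ND libraries. The higher sum in CDAHFD libraries rested on Hdc, and without Hdc the sum was lower there than in ND libraries. Hlf, the other gene that rose, named after its values were seen, averaged 51.9 in CDAHFD and 2.35 in ND libraries. It entered the test only through its CDAHFD level. Of 8 B and plasma cell markers 3 rose and 5 fell (sum 22835 to 23984 in CDAHFD and 20523 to 21219 in ND libraries). Ms4a1, which encodes CD20, fell to 2857 in CDAHFD libraries, against 3990 in ND libraries, and Jchain, a gene of antibody-secreting cells, rose to 7615 in CDAHFD libraries, against 1095 in ND libraries.

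**Figure D3:**
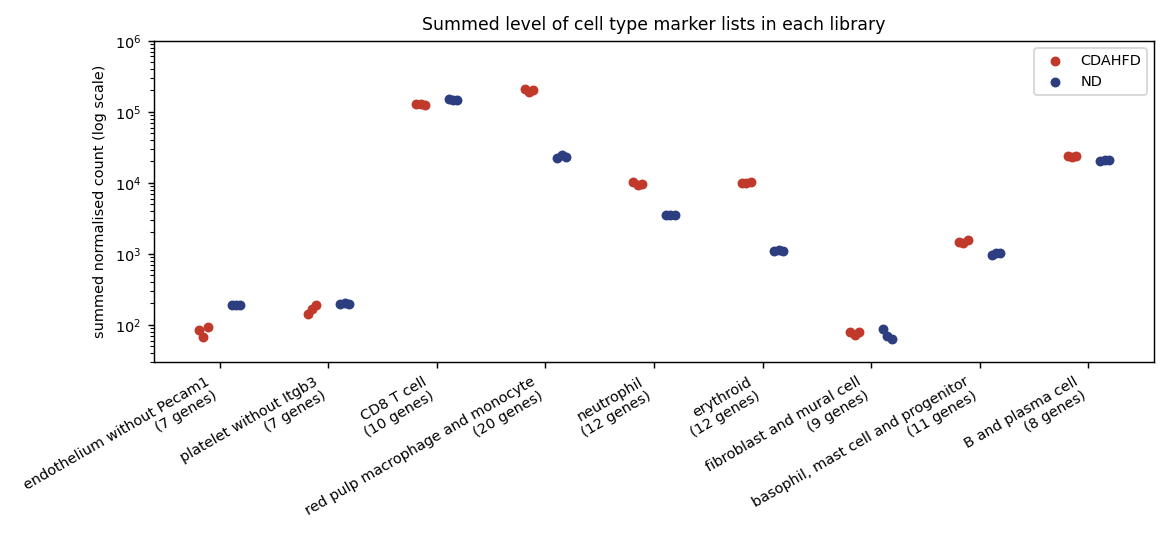
Summed normalised counts (vertical axis, logarithmic) of each marker list in 3 CDAHFD libraries (red, left of each pair) and 3 ND libraries (blue, right). The endothelial markers without Pecam1 lie at 67.2 to 92.0 in CDAHFD and 189 to 193 in ND libraries, while the macrophage list lies at 189293 to 207217 in CDAHFD and 22565 to 24880 in ND libraries.

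Other genes of the same lineages and pathways were counted next, beside the 47.1% called among all genes tested, 24.6% higher and 22.5% lower. Of 31 other pan-endothelial genes 29 had a row but 12 were tested, and 2 rose, 8 fell and 2 did not pass (median log2 fold change -0.21). The 17 genes below the minimum for testing included Tek, Tie1, Erg and Cldn5. Gimap4, S1pr1 and Icam2, named after their values were seen, fell by small steps, with log2 fold changes of -0.14, -0.21 and -0.29. Their means were 14127, 8040 and 1243 in CDAHFD and 15513, 9297 and 1516 in ND libraries. Eng, an endothelial co-receptor for TGF-beta, fell to 608 ± 78.5 in CDAHFD libraries, against 1138 ± 38.9 normalised counts in ND libraries (SD, n = 3 each, limma adjusted p = 2.43e-10). Ets1, a transcription factor gene that T cells express strongly, fell to 35458 in CDAHFD libraries, against 40899 in ND libraries. Esam, an adhesion molecule of endothelium and platelets, rose to 141 ± 19.0 in CDAHFD libraries, against 31.8 ± 3.88 in ND libraries (SD, n = 3 each, limma adjusted p = 9.02e-11). Tal1, a transcription factor of blood and endothelial precursors that erythroid cells also use, rose to 131 in CDAHFD libraries, against 28.3 in ND libraries. Fli1 and Calcrl did not pass the test.

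Of 20 other sinusoidal endothelial genes 10 were tested, and 6 rose, 1 fell and 3 did not pass (median log2 fold change 1.30). Without ND replicate 2, 0 of them fell. The mannose receptor gene Mrc1, the transcription factor gene Maf and the cyclooxygenase gene Ptgs1 are all known from macrophages as well. Mrc1 rose to 16145 ± 1124 in CDAHFD libraries, against 1417 ± 53.0 in ND libraries (SD, n = 3 each), and Maf rose to 3241 in CDAHFD libraries, against 293 in ND libraries. Stab1, the close relative of Stab2 that both sinusoidal endothelium and macrophages carry, rose to 68.1 ± 8.08 in CDAHFD libraries, against 15.4 ± 1.92 in ND libraries (SD, n = 3 each; log2 fold change 2.08, SE 0.25, limma adjusted p = 4.88e-08). Clec4g and Oit3, markers of liver sinusoids named after their values were seen, averaged 1.67 and 2.61 in CDAHFD and 8.59 and 3.38 normalised counts in ND libraries and were not tested. Bmp2, Fcgr2b, Tfpi and Gpr182, also named after their values were seen, were tested. Bmp2 rose to 49.97 in CDAHFD libraries, against 6.26 in ND libraries, and entered the test only through its CDAHFD level. Fcgr2b rose to 920 in CDAHFD libraries, against 640 in ND libraries. Tfpi, the gene that fell, averaged 235 in CDAHFD and 292 in ND libraries. Gpr182, at 39.03 in CDAHFD and 37.61 in ND libraries, did not pass the test. Dnase1l3, at 4069 in CDAHFD and 3927 in ND libraries, and Ehd3, at 3473 in CDAHFD and 3456.5 in ND libraries, did not pass the test.

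Genes of lymphatic and other vessel types were low. Of 15 genes 6 were tested, and 3 rose, 1 fell and 2, Reln and Angpt2, did not pass (median log2 fold change 0.43). Hey1, a Notch target of arterial endothelium, rose to 30.7 ± 8.37 in CDAHFD libraries, against 8.96 ± 1.23 in ND libraries (SD, n = 3 each, limma adjusted p = 2.56e-04), and the kinase gene Bmx rose to 29.8 in CDAHFD libraries, against 11.4 in ND libraries. Hey1 lay below the minimum of 10 in ND libraries, so it entered the test only through its CDAHFD level. The endothelial selectin gene Sele fell to 57.1, 60.6 and 44.5 in the CDAHFD libraries, against 87.6, 80.6 and 109 in the ND libraries (log2 fold change -0.76, SE 0.18, limma adjusted p = 0.00104). Efnb2, an arterial ephrin, passed by a narrow margin at 42.7 in CDAHFD and 27.1 in ND libraries (limma adjusted p = 0.0372). Its call was lost under 6 of 16 alternatives, including without ND replicate 2 (0.0881) or 3 (0.0967) and without CDAHFD replicate 1 (0.148) or 2 (0.0849).

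Of 38 other platelet and megakaryocyte genes 24 were tested, and 10 rose, 1 fell and 13 did not pass (median log2 fold change 0.34). The number that fell was 2 without ND replicate 2, ND replicate 3 or CDAHFD replicate 2. Serpine2, 1 of those that rose and named after its values were seen, averaged 26.3 in CDAHFD and 8.95 in ND libraries. It entered the test only through its CDAHFD level. Tbxas1, which makes thromboxane and is also active in macrophages, rose to 1364 ± 14.1 in CDAHFD libraries, against 232 ± 20.9 in ND libraries (SD, n = 3 each, limma adjusted p = 1.55e-21). P2ry12, the ADP receptor of platelets and of some macrophages, rose to 400 ± 23.0 in CDAHFD libraries, against 64.2 ± 12.3 in ND libraries (SD, n = 3 each, limma adjusted p = 9.70e-16). Plek and Vamp8, both widely used by leukocytes, rose to 4910 and 1324 in CDAHFD libraries, against 3118 and 1064 in ND libraries. Gp9 and Treml1, platelet receptor genes named after their values were seen, were not tested, with Gp9 at 6.80 in CDAHFD and 5.58 in ND libraries and Treml1 at 1.31 in CDAHFD and 1.02 normalised counts in ND libraries. Bin2 and Fermt3 did not pass the test, though Fermt3 was called lower without ND replicate 3 (limma adjusted p = 0.038) and with equal library totals (0.0238).

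**Figure D4:**
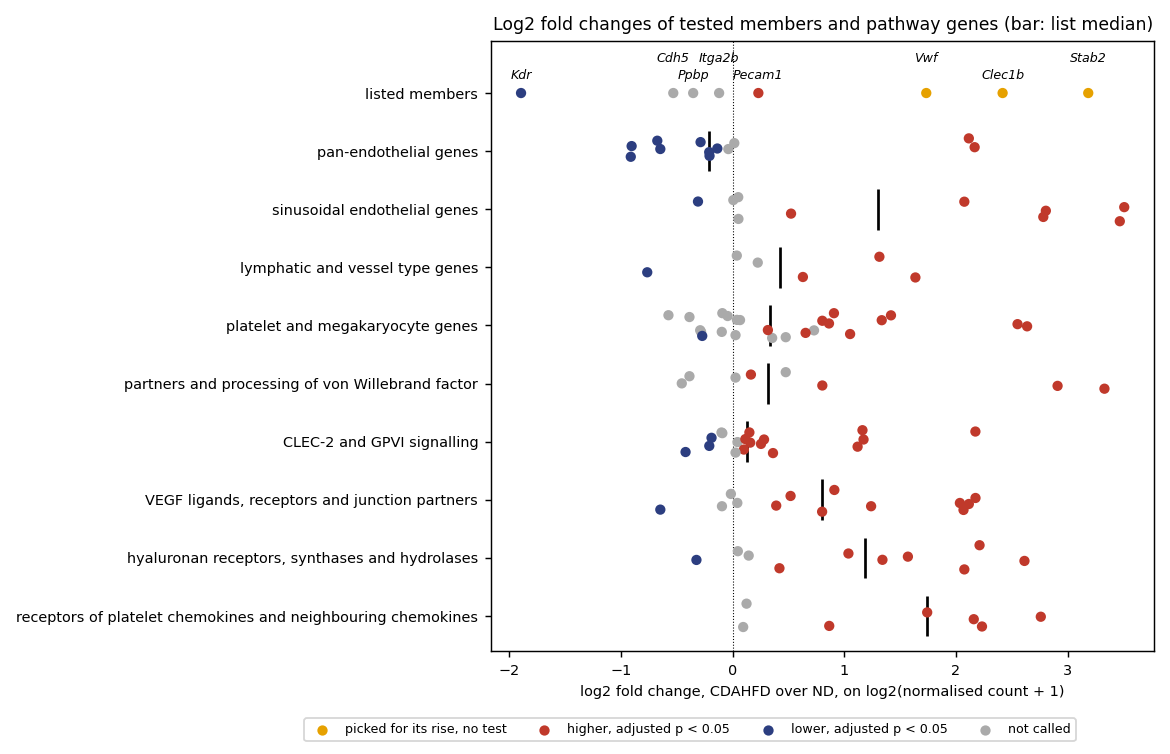
Log2 fold changes, CDAHFD over ND, on log2(normalised count + 1) (horizontal axis) of the 8 members above the minimum of 10 normalised counts (Stab2, Clec1b and Vwf as a description) and of tested genes of 9 related lists; vertical bars are list medians. Stab2, Clec1b and Vwf lie at 3.19, 2.42 and 1.73 and Kdr at -1.89, and the pan-endothelial median lies at -0.21 while the sinusoidal median lies at 1.30.

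Each member was then set beside the partners of its protein. The counts of these lists stand beside 24.6% higher and 22.5% lower among all genes tested. Of 14 genes for partners and processing of von Willebrand factor 8 were tested, and 4 rose and 4 did not pass (median log2 fold change 0.32). The share called was near the 47.1% of all genes tested, though all 4 calls were rises, where 24.6% of all genes tested rose. Lrp1, an endocytic receptor that clears von Willebrand factor and is abundant in macrophages, rose to 21405 ± 832 in CDAHFD libraries, against 2846 ± 111 in ND libraries (SD, n = 3 each, limma adjusted p = 1.62e-28). Asgr2, a subunit of the asialoglycoprotein receptor, rose to 25.4 in CDAHFD libraries, against 1.66 in ND libraries, where it rested on 5 reads in all. It entered the test only through its CDAHFD level. Thbs1 rose to 99.6 in CDAHFD libraries, against 57.0 in ND libraries, and Furin, the protease that cuts the propeptide, rose to 2077 in CDAHFD libraries, against 1851 in ND libraries. The call of Furin was lost without trend and robust estimation in limma (adjusted p = 0.0685). The platelet side of the pair did not pass the test. Gp1ba, the platelet receptor for von Willebrand factor, averaged 51.5 ± 7.89 in CDAHFD and 67.6 ± 10.3 in ND libraries (SD, n = 3 each; log2 fold change -0.39, 95% interval -0.79 to 0.01, limma adjusted p = 0.108). Itgb3, the partner of Itga2b, averaged 793 ± 10.7 in CDAHFD and 780.0 ± 54.0 in ND libraries (SD, n = 3 each, limma adjusted p = 0.767).

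CLEC-2 and the collagen receptor GPVI signal through the kinase SYK. Of 20 genes of this pathway 18 were tested, and 11 rose, 3 fell and 4 did not pass (median log2 fold change 0.13). Several rises were small. Rap1b, Tln1, Plcg2 and Lcp2, named after their values were seen, had log2 fold changes of 0.10, 0.11, 0.15 and 0.16. Without trend and robust estimation in limma, 7 genes rose and 1 fell. Syk rose to 8642 ± 256 in CDAHFD libraries, against 3833 ± 126 in ND libraries (SD, n = 3 each; log2 fold change 1.17, SE 0.04, limma adjusted p = 9.91e-20). Fcer1g, the signalling chain of GPVI and of Fc receptors, rose to 2135 in CDAHFD libraries, against 472 in ND libraries, and the kinase gene Lyn rose to 4970 in CDAHFD libraries, against 2218 in ND libraries. The Tec kinase gene fell to 931 in CDAHFD libraries, against 1246 in ND libraries. Gp6 itself, named after its value was seen, had fewer than 5 reads in each library, and Pdpn, the ligand of CLEC-2, had no row in the table used here. Rasgrp2 and Fermt3 did not pass the test, though Rasgrp2 was called lower without CDAHFD replicate 3 (limma adjusted p = 0.0254), with no minimum (0.0311) and with equal library totals (0.0257).

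Kdr is the main receptor of VEGF signalling. Of 20 genes of VEGF ligands, receptors and junction partners 13 were tested, and 9 rose, 1 fell and 3 did not pass (median log2 fold change 0.80). Vegfa, 1 of those that rose and named after its values were seen, averaged 27.1 in CDAHFD and 9.96 in ND libraries. It entered the test only through its CDAHFD level. The gene that fell was Flt1, the sister receptor of Kdr, named after its value was seen. It stood at 106, 112 and 104 normalised counts in the CDAHFD libraries, against 164, 165 and 175 in the ND libraries (log2 fold change -0.65, SE 0.13, limma adjusted p = 1.17e-04). The co-receptor Nrp1 rose to 936 ± 57.3 in CDAHFD libraries, against 228 ± 15.8 in ND libraries (SD, n = 3 each, limma adjusted p = 1.85e-18). The junction genes Jup and Ctnnd1, whose products bind the tails of cadherins, rose to 2293 and 163 in CDAHFD libraries, against 507 and 38.0 in ND libraries. Ctnnb1 and Sh2d2a did not pass the test, and neither did Nrp2, the other neuropilin gene, at 331 in CDAHFD and 354 in ND libraries (limma adjusted p = 0.437).

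Of 17 other genes of hyaluronan receptors, synthases and hydrolases 10 were tested, and 7 rose, 1 fell and 2, Has3 and Hyal1, did not pass (median log2 fold change 1.19). Cd44, the main hyaluronan receptor of leukocytes, rose to 8430 ± 462 in CDAHFD libraries, against 2835 ± 32.2 in ND libraries (SD, n = 3 each). Cemip2, a cell surface hyaluronidase, rose to 334 ± 19.0 in CDAHFD libraries, against 131 ± 7.36 in ND libraries (SD, n = 3 each, limma adjusted p = 1.79e-11). The Toll-like receptors Tlr4 and Tlr2, which hyaluronan fragments are known to engage, rose to 1033.5 and 653 in CDAHFD libraries, against 169 and 317 in ND libraries. The gene that fell, Hmmr, is also a mitotic gene, and it is named here with its value known. Its call (limma adjusted p = 0.0303) was lost without ND replicate 2 or 3, without CDAHFD replicate 1 or 2 and by DESeq2.

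The chemokines of platelets act through Cxcr2 and, for Pf4, Cxcr3 and Ccr1. Of 13 genes for receptors and neighbouring chemokines 7 were tested, and 5 rose and 2, Srgn and Sdc4, did not pass (median log2 fold change 1.74). Srgn was called higher without ND replicate 2 (limma adjusted p = 0.0337) and Sdc4 without CDAHFD replicate 2 (0.0222). Cxcr2, which neutrophils carry, rose to 709 ± 38.9 in CDAHFD libraries, against 104 ± 3.28 in ND libraries (SD, n = 3 each, limma adjusted p = 9.23e-20). Cxcr3, a receptor of effector T cells, rose to 2564 ± 69.2 in CDAHFD libraries, against 1409 ± 111 in ND libraries (SD, n = 3 each). Cxcl2, a chemokine gene near Ppbp and Pf4 on chromosome 5, rose to 142 ± 10.1 in CDAHFD libraries, against 29.4 ± 3.66 in ND libraries (SD, n = 3 each, limma adjusted p = 2.48e-11). Ccl5 rose to 11454 in CDAHFD libraries, against 2560 in ND libraries. The ligands Pf4 and Ppbp, set beside these, averaged 3.25 and 9.26 in CDAHFD libraries and 4.40 and 13.1 normalised counts in ND libraries. The macrophage and neutrophil lists rose beside all of these lists, and their part was not tested.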

How the data were processed

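RNA was extracted with TRIzol, and libraries came from a whole-RNA or an mRNA kit, per the labels' protocols, which do not say which kit served which library. The build was mm10, per the submitters' processing notes. The sources used here name no aligner, counting tool, strand setting or annotation. The signal deposited by the authors is a normalised count, which proved to be whole reads scaled by a single factor in each library: 100% of values came out whole within 0.001. Columns spelled CDHFD were matched to the CDAHFD samples, the other diet.

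Symbols were matched for 26147 of 26181 IDs, and positions come from GENCODE M21 (mm10). The test was limma 3.58.1 in R 4.3.3 (mean-variance trend, robust estimation) with diet as the one term. The fit was also tested on simulated data. The whole reads also went through edgeR 4.0.16, which called 7489 genes, and DESeq2 1.42.0. Members and lists were chosen with earlier results of these data known. Named are all members, and from each related list up to 4 called genes with the smallest adjusted p and up to 2 uncalled genes with the highest mean, and 2 genes of highest mean per marker list. Other names are said to be chosen after their values were seen. Alternatives were another pseudocount, minimum, scaling or tool, a replicate block and each library left out.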

Additional observations from a re-analysis of the deposited data

How the results depend on the processing

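Over 16 alternatives, Stab2 kept a log2 fold change of 3.14 to 3.25, Vwf of 1.65 to 1.79, Clec1b of 2.18 to 2.56, Pecam1 of 0.21 to 0.24 and Kdr of -2.10 to -1.61, and Kdr and Pecam1 stayed called in each. The 7 members listed for what they mark had 2 calls in the main fit and 2 to 3 with a library left out. Calls over all genes numbered 7449 by limma, 7489 by edgeR, 6755 by DESeq2 and 7250 with a replicate block. Same-numbered libraries did not deviate together (correlations of -0.05 to 0.06 over genes). Such values cannot show whether the libraries were collected or processed in pairs. The block changed no call of a member. Of 1172 alternative values of 74 named genes, 7 lost a call (6 of them for Efnb2, 1 for Furin), 11 gained one and none with a call in either fit changed sign. Counts that moved by over 1.5 times were small. Without a minimum, sinusoidal genes that fell numbered 2 against 1, vessel type genes that fell 2 against 1 and VEGF genes that fell 3 against 1. With a minimum of 50, vessel type genes that rose numbered 0 against 3. With equal totals, platelet genes that fell numbered 2 against 1 and CLEC-2 pathway genes that fell 5 against 3. Without trend and robust estimation, CLEC-2 pathway genes numbered 7 higher against 11 and 1 lower against 3. Hmmr, the hyaluronan gene that fell, gave 0 without trend and robust estimation and 0 by DESeq2. With a library left out, genes that fell numbered 0 to 1 among sinusoidal genes, 1 to 2 among platelet genes and 0 to 1 among hyaluronan genes. The cause was not tested. Lyve1 and Pf4 were limited by depth.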
